A study of Mus musculus with 16 samples.

Results

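The 47 genes described here are the Wnt ligands, receptors and modulators of the mouse: 19 Wnt ligand genes, 15 receptor genes (10 Frizzled genes, Lrp5, Lrp6, Lgr4, Lgr5 and Lgr6) and 13 modulator genes (Rspo1 to Rspo4, Sfrp1, Sfrp2, Sfrp4, Sfrp5, Axin2, Vangl2 and Dkk1 to Dkk3). They were looked up by symbol among 21755 protein-coding genes of chromosomes 1 to 19 and X (GENCODE vM21, build GRCm38, also called mm10), and all 47 were found. The chromatin data came from Micro-C, in which crosslinked chromatin is digested with micrococcal nuclease and neighbouring fragments are ligated, so that sequencing reads out which parts of the genome touched. Whole cochleae of P0 C57Bl/6 mice (P0/1 in the study's text), with no treatment or engineered allele named, were profiled in 4 replicates, of which the study calls the last a technical replicate. Loops were called by the authors on the merged replicates in bins of 10 kb, so that each loop is a pair of bins, its anchors, with 1 false discovery rate (FDR) and no value per replicate. No spread between replicates can therefore be given and no difference could be tested. Sequencing depth cannot be read from the loop list, but the study reports it per replicate, and the last replicate had the most read pairs. All intervals given are Wilson intervals at 95% and hold the counting error of genes or bins alone. The tissue holds many cell types, a loop list holds no expression values with which the tissue label could be checked, and a pair of positions missing from the list is not shown to lack contact.

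Wnt proteins are secreted lipid-modified ligands that bind Frizzled receptors. Together with the coreceptors Lrp5 and Lrp6 this stabilises β-catenin, which acts with TCF/LEF factors on target genes, and other Frizzled signals steer planar cell polarity through proteins such as Vangl2. R-spondins bind Lgr4, Lgr5 and Lgr6 and raise the number of Frizzled receptors at the membrane, whereas secreted Frizzled-related proteins (Sfrp) and most Dickkopf proteins (Dkk) act as antagonists, and Axin2 is both a target of the pathway and a brake on it. In the cochlea, Lgr5 marks supporting cells that can divide and form hair cells after birth, and Vangl2 is needed for the orientation of hair bundles.

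Loops at Wnt genes were counted in 2 ways. A loop was anchored at a gene when an anchor bin overlapped the gene body or lay within 20 kb of its start site, and it spanned a gene when the whole gene body lay between the anchors of a loop not anchored at it. An anchored loop was found for 33 of the 47 genes (70.2%, interval 56.0% to 81.3%), against 35.5% of all protein-coding genes. With the gene body left aside, an anchor lay within 20 kb of the start site of 32 genes (68.1%), against 27.2% of all protein-coding genes. Wnt5b is the gene that counted by its body alone, with the start site taken as the 5′ end of the gene. The start site itself lay in an anchor bin for 13 genes (27.7%, 16.9% to 41.8%), against a background of 7.10%. A loop spanned 23 genes (48.9%, 35.3% to 62.8%), against 24.1% of protein-coding genes. Neither kind of loop was listed for 7 genes, Wnt2, Wnt6, Wnt8a, Wnt8b, Wnt10a, Fzd9 and Rspo4 (14.9%, 7.41% to 27.7%), whereas 49.5% of all protein-coding genes had neither.

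Longer genes overlap more bins, so the shares were also read by gene length. Of the 15 Wnt genes shorter than 10 kb, 11 had an anchored loop (73.3%), against 22.2% of protein-coding genes of that length. Between 10 and 50 kb it was 13 of 22 (59.1%), against 31.9%. At 50 kb or longer it was 9 of 10, against 62.3%. The median distance from a start site to the nearest anchor bin was 10.8 kb over the Wnt genes and 56.6 kb over all protein-coding genes. At the border of the window, Sfrp4, Fzd5 and Wnt3a lay just inside it, with 16897, 17751 and 19249 bp to the nearest anchor bin, and Fzd2, Fzd8 and Wnt16 just outside, with 24396, 27838 and 31774 bp.

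**Figure D1:**
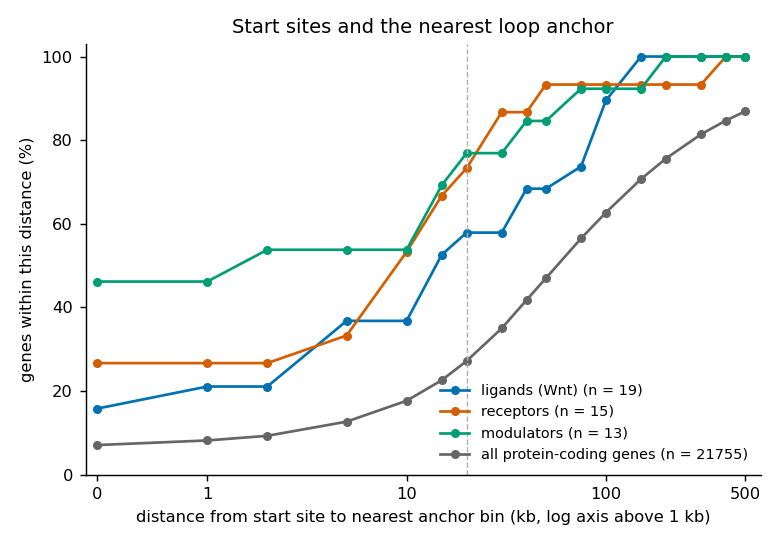
Share of genes (y axis, percent) whose start site lies within a given distance of the nearest anchor bin (x axis, kb, logarithmic above 1 kb), for ligands, receptors, modulators and all protein-coding genes, with the 20 kb window dashed. At 20 kb the lines stand at 57.9%, 73.3%, 76.9% and 27.2%.

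The 3 classes overlapped in their shares. Anchored loops were listed for 12 of 19 ligands (63.2%, 41.0% to 80.9%), 11 of 15 receptors (73.3%, 48.0% to 89.1%) and 10 of 13 modulators (76.9%, 49.7% to 91.8%), and the intervals overlapped. Start sites in an anchor bin numbered 3 among the ligands (15.8%, 5.52% to 37.6%), 4 among the receptors (26.7%, 10.9% to 52.0%) and 6 among the modulators (46.2%, 23.2% to 70.9%), again with overlapping intervals. The ligands held 5 of the 7 genes without any loop, which was 26.3% of the ligands (11.8% to 48.8%). Median distance to the nearest anchor bin was 12.5 kb for ligands, 9.16 kb for receptors and 1.56 kb for modulators.

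**Figure D2:**
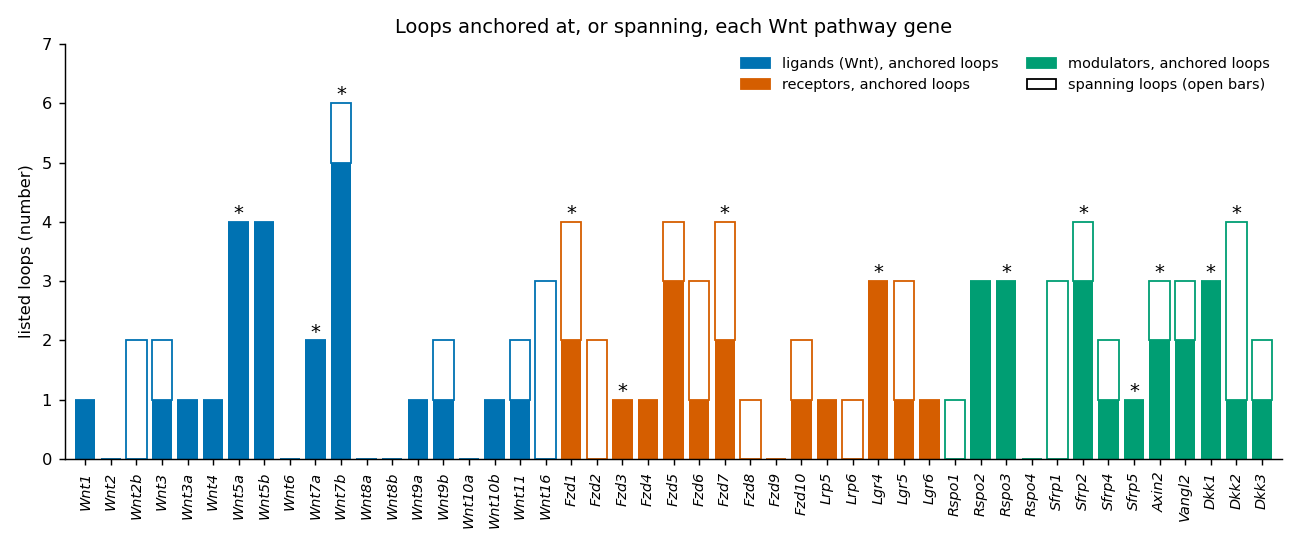
Number of listed loops (y axis) anchored at each gene (filled bars) and spanning it (open bars stacked on top), with ligands in blue, receptors in orange and modulators in green; an asterisk marks a gene whose start site lies in an anchor bin. Wnt7b had the most anchored loops, 5, and Wnt5a and Wnt5b had 4 each.

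Anchored loops numbered 57 in all, counted once each, and 34 further loops spanned Wnt genes. The anchored loops ran from 70 to 1040 kb between bin starts, with a median of 240 kb (quartiles 160 and 350 kb), against 280 kb in the whole list of 6798 loops. Their median FDR, 0.0113, was the same as that of the list. Loops at modulators had a median distance of 295 kb, those at ligands 220 kb and those at receptors 180 kb. The median FDR was 0.00471 over 17 loops at receptors, 0.0175 over 20 at ligands and 0.0179 over 20 at modulators.

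**Figure D3:**
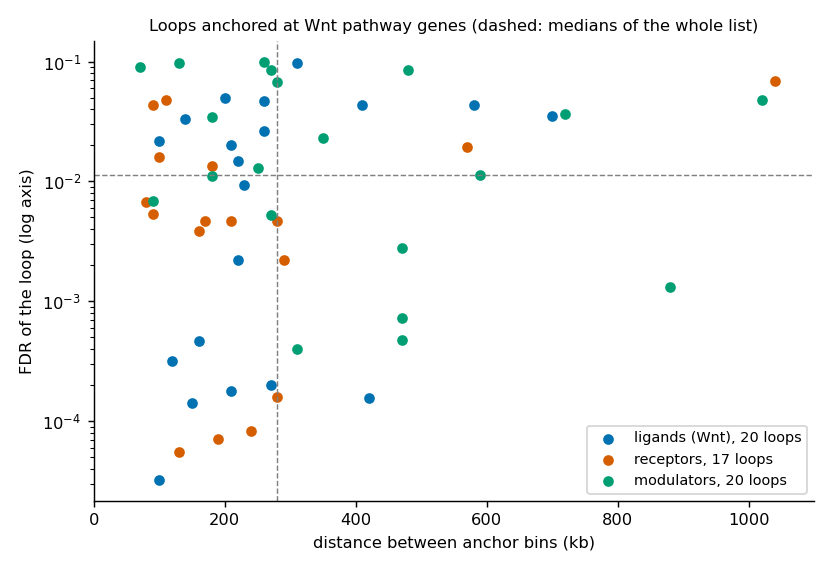
Distance between the anchor bins (x axis, kb) and FDR (y axis, logarithmic) of the 57 loops anchored at Wnt pathway genes, coloured by class, with the medians of the whole list (280 kb and 0.0113) dashed. Most loops lie below 400 kb (75.4%), and the lowest FDR, 3.23e-05, belongs to a loop of 100 kb at a ligand.

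Wnt7b, a ligand, had 5 anchored loops, which reached out on both sides of the gene on chromosome 15. In the direction of transcription, loops of 270 kb (FDR 1.99e-04) and 100 kb (0.0217) left the intronic bin chr15:85570001-85580000, and a loop of 200 kb (0.0501) left the neighbouring bin chr15:85580001-85590000, which holds the start site. On the upstream side the bin chr15:85600001-85610000, 17528 bp from the start site, was joined to bins 100 kb and 260 kb farther on. The shorter of these loops had the lowest FDR of any loop anchored at a Wnt gene, 3.23e-05, and 249 loops of the list (3.66%) had a lower one. Its far bin, chr15:85700001-85710000, held the genes of the microRNAs let-7c (Mirlet7c-2) and let-7b (Mirlet7b) and no protein-coding start site, and the far bin of the longer loop (FDR 0.0467) overlapped Gtse1. A loop of 440 kb (FDR 0.0563) spanned the whole gene.

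The let-7 microRNAs repress mRNAs that pair with their seed, bases 2 to 8. The mature sequences (RefSeq, GRCm38) are shown because their genes lie in the partner bin of this loop, and the seed is in capitals.
mmu-let-7c-5p, chr15:85706616-85706637, plus strand: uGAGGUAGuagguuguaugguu
mmu-let-7b-5p, chr15:85707325-85707346, plus strand: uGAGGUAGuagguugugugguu
They share the seed and 21 of their 22 bases.

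The bins at the far ends of 4 of the Wnt7b loops held a match of a 14-base consensus of CTCF, the zinc finger protein at which many loops end. The consensus was searched on both strands with at most 1 mismatch, and the best match of each of these bins is shown with 8 bases on either side, read along the strand of the match, with the match in capitals.
Wnt7b, far bin of the 200 kb loop, chr15:85388887-85388916, plus strand: ttttgttcCCAGCAGGGGGAGCagtgaggt
Wnt7b, far bin of the 100 kb downstream loop, chr15:85477779-85477808, plus strand: cagcacccCCACCAGGGGGCACatggggat
Wnt7b, far bin of the 100 kb upstream loop, chr15:85709505-85709534, minus strand: tagattagCCAGCAGGTGGCAGcagaaggc
Wnt7b, far bin of the 260 kb loop, chr15:85867891-85867920, minus strand: ccactccaCCACTAGATGGCAGccttgttt
The first has 1 mismatch and the other 3 have none. All 4 pointed toward Wnt7b, on the plus strand to its left and on the minus strand to its right, while the 3 bins at Wnt7b itself held no match. A match says only that these letters are present, not that CTCF is bound there.

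Wnt5a, a ligand that signals mainly outside the β-catenin route and takes part in cochlear extension, had 4 loops on chromosome 14. The bin with its start site, chr14:28500001-28510000, was joined to a pair of bins upstream at 700 kb (FDR 0.0354) and 410 kb (0.0432), both in Erc2, and the bin next to it reached another place in Erc2 at 210 kb (0.0202). On the other side the bin with exon 5 was joined over 580 kb to Cacna2d3 (FDR 0.0432), at a bin that another loop also used. All 4 FDR values were above the median of the list.

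Wnt5b, the paralogue of Wnt5a and the longest ligand gene at 111817 bp, also had 4 loops. None of them was anchored at its start site, taken as the 5′ end of the gene. Other RefSeq start sites lie inside the gene, next to chr6:119449387 and chr6:119467212. The bin with exon 5, chr6:119430001-119440000, is nearer to these than to the 5′ end. Intronic bins 34347 and 44347 bp from the start site were joined to Erc1, the paralogue of Erc2, at 220 kb (FDR 0.00223) and 310 kb (0.0967), and to Rad52 at 420 kb (1.56e-04). The bin with exon 5 reached Dcp1b on the downstream side at 220 kb (FDR 0.0148). Upstream loops thus ended in an Erc gene at both paralogues, in 3 of 3 at Wnt5a and 2 of 3 at Wnt5b. The Erc genes are neighbours on the upstream side, and Erc2 reaches at least from chr14:27800001-27810000 to chr14:28280001-28290000. Any upstream loop of Wnt5a ending in that range would end in Erc2, and the share of upstream bins in Erc genes was not counted.

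Wnt7a had 2 loops, both downstream. The bin of its start site was joined at 120 kb to a bin with no protein-coding gene (FDR 3.19e-04), and a bin 8638 bp from the start site to Hdac11 at 260 kb (0.0263). Wnt4, which acts in the development of kidney and gonad, had 1 loop of 210 kb from its last exons to a far bin upstream with no protein-coding gene (FDR 1.79e-04), and 10.4% of the loops of the list had a lower one. Wnt11 had 1 loop of 230 kb to Uvrag (FDR 0.00926) and was spanned by another of 320 kb (0.00141). Wnt2b and Wnt16 had no anchored loop and were spanned by 2 and 3 loops. Those over Wnt16 shared the left bin and measured 200, 370 and 850 kb, with FDR values of 0.0604, 0.00314 and 0.00436.

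The ligands include 4 pairs of neighbouring genes, and 3 of these pairs shared an anchored loop. Wnt1 and Wnt10b, Wnt3 and Wnt9b, and Wnt3a and Wnt9a are each transcribed away from each other, with 11.7, 24.3 and 16.2 kb between the genes. At such distances the 20 kb windows of both start sites can take in the same bin, so that sharing is partly set by the rule. Each shared loop counts for both genes of its pair in the shares above, and the intervals treat these genes as independent. Wnt6 and Wnt10a, transcribed in the same direction with 6.19 kb between them, had neither an anchored nor a spanning loop, and the nearest anchor bins to their start sites were 108109 and 88485 bp away.

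The loop of Wnt1 and Wnt10b measured 140 kb and had an FDR of 0.0335. Its anchor, chr15:98790001-98800000, began 144 bp inside Wnt1 and lay 11851 bp from the start site of Wnt10b, and the far anchor lay in Ddx23 beyond Wnt10b. At Wnt3 and Wnt9b the anchor chr11:103760001-103770000 lay between the genes, 4150 bp from the start site of Wnt3 and 10180 bp from that of Wnt9b. It was joined over 150 kb to Nsf (FDR 1.42e-04), and a loop of 240 kb (0.0975) spanned both genes. The anchor of Wnt3a and Wnt9a, chr11:59310001-59320000, lay in an intron of Wnt9a, 3073 bp from its start site and 19249 bp from that of Wnt3a. Its partner at 160 kb (FDR 4.70e-04) held the start site of Zfp867, a zinc finger gene, so that this was 1 of the few loops anchored at Wnt genes with a protein-coding start site at the far end.

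**Figure D4:**
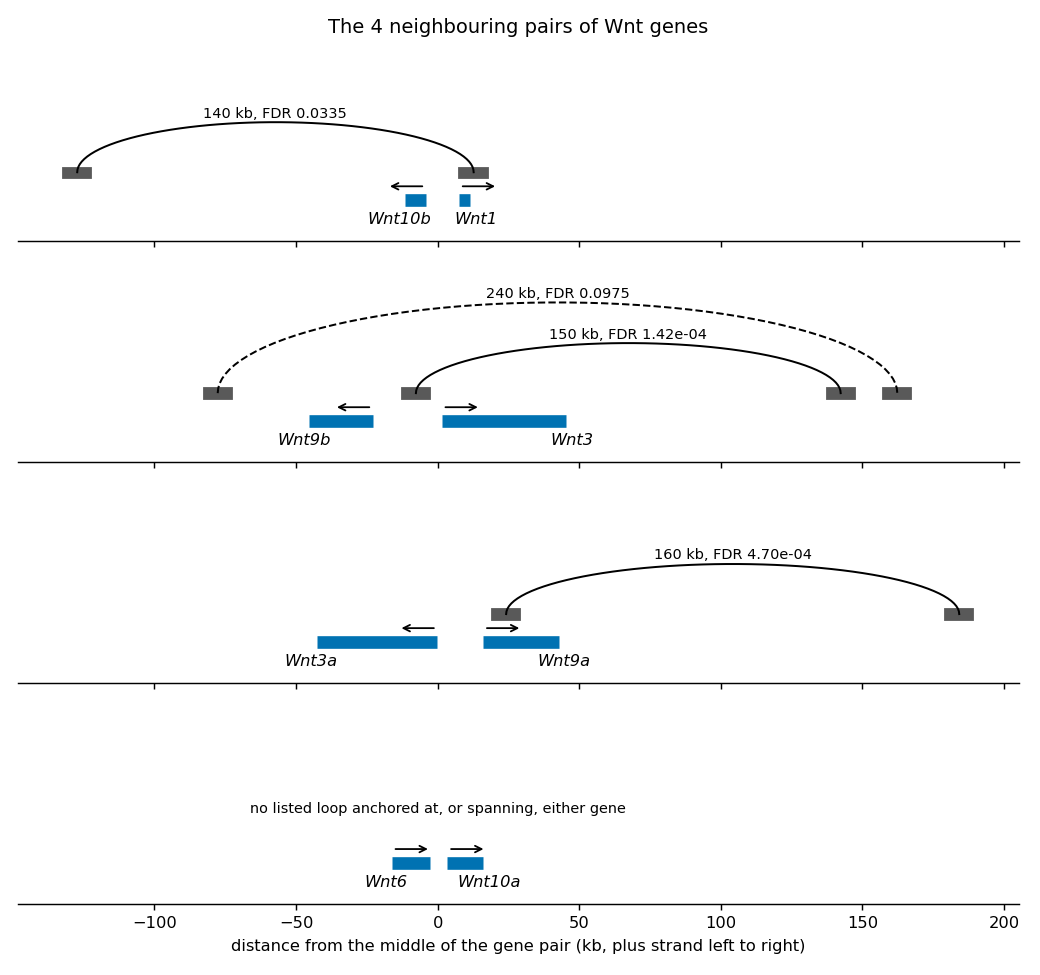
Maps of the 4 neighbouring pairs of Wnt genes (blue bars, arrows at the start sites) to one scale in kb from the middle of each pair, with anchor bins in grey, anchored loops as solid arcs and spanning loops as dashed arcs. In 3 pairs a single loop is anchored at both genes, at 140, 150 and 160 kb, and Wnt6 and Wnt10a have none.

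The CTCF matches at the ends of these loops are shown in the same way, since in the first 2 pairs they face each other across the loop.
Wnt1 and Wnt10b, far bin, chr15:98657528-98657557, plus strand: caaagaggCCAGAAGAGGGCACtggatcct
Wnt1 and Wnt10b, near bin, chr15:98799567-98799596, minus strand: aagatttgCCACGAGGTGGCGCtgttcgaa
Wnt3 and Wnt9b, near bin, chr11:103763924-103763953, plus strand: tttattctCCAGCAGGTGGCACtctcatcc
Wnt3 and Wnt9b, far bin, chr11:103911403-103911432, minus strand: aagtttgaCCACAAGAGGGCAGtagagtat
Wnt3a and Wnt9a, near bin, chr11:59312984-59313013, minus strand: gaggcattCGACTAGGGGGCACaatgtgca
The match between Wnt3 and Wnt9b has no mismatch and lies 10218 bp from the start site of Wnt3 and 14111 bp from that of Wnt9b, and each of the others has 1. The match at Wnt9a lies on the left of its loop and points away from the partner, whose bin held no match.

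Some anchored loops held the whole gene between the outer edges of their anchor bins. Lgr4, Lgr5 and Lgr6, which bind R-spondins, each had a loop whose outer edges enclosed the whole gene, and these loops were among the lowest in FDR of those anchored at a Wnt gene. The loop at Lgr6 measured 130 kb (FDR 5.50e-05), that at Lgr5 190 kb (7.10e-05) and that at Lgr4 280 kb (1.60e-04). At Lgr5, a gene of 137470 bp, the bin 12221 bp upstream of the start site was joined to a bin beyond the 3′ end in Zfc3h1, and 2 further loops, of 380 kb (FDR 0.0850) and 570 kb (0.0579), spanned the gene. At Lgr6, a gene of 121976 bp, the bin 4725 bp upstream was joined to the bin over the 3′ end. At Lgr4 the start site lay in the anchor, which was also joined over 90 kb to a bin within the gene (FDR 0.00538), and the bin with exon 18 was joined over 180 kb (0.0134) to the same far bin, which held the start site of the noncoding Gm13936. Over genes of any length, 23 of the 60 combinations of a Wnt gene and an anchored loop enclosed the whole gene (38.3%), against 24.5% over all protein-coding genes. The receptors among them were also Fzd1, Fzd3, Fzd4, Fzd5 and Fzd7. A short gene inside an anchor bin counted as enclosed, as Fzd1, Fzd7 and Dkk1 did in the loops from their start site bins. The share over genes of any length thus also depends on gene length. Over genes of 50 kb or longer, it was 4 of 18 (22.2%), against 15% of 5971 combinations over all protein-coding genes, and these 4 were at the Lgr genes and Fzd3. At Lgr6 the matches of the CTCF consensus faced each other from the ends of the gene, and the pair is shown for that reason.
Lgr6, bin over the 3′ end, chr1:134989557-134989586, plus strand: ctcatccaCCACTAGAGGGTGCactttgcc
Lgr6, bin upstream of the start site, chr1:135112840-135112869, minus strand: cagaatcaCCACCAGGTGGCATatgtcctc
No bin of the Lgr5 loop held a match.

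The coreceptor genes differed from each other in the list. Lrp5 had a loop of 80 kb (FDR 0.00671) between a bin 13437 bp upstream of its start site and a bin in the gene. Lrp6 had no anchored loop, its start site lay 43036 bp from the nearest anchor bin, and a loop of 180 kb spanned it (FDR 2.36e-05). This was the lowest FDR among the 34 loops that spanned Wnt genes. Whether the genes differ in contact cannot be told from single calls.

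Of the 10 Frizzled genes, 7 had an anchored loop. Fzd5 had 3, which all left one bin 17751 bp downstream of its start site, toward Dytn at 1040 kb (FDR 0.0694), Plekhm3 at 210 kb (0.00471) and a bin with the start site of the noncoding Gm24788 at 290 kb (0.00221). Another loop, of 1360 kb, spanned it. Fzd4, which transduces Norrin signals in retinal and inner ear vessels, had 1 loop of 240 kb to Tmem135 with an FDR of 8.33e-05, and 6.62% of the list had a lower one. Fzd3, with Fzd6 a receptor of planar polarity in the inner ear, had its start site in the anchor of a loop of 90 kb (FDR 0.0436) to a bin with noncoding start sites only. Fzd6 had a loop of 280 kb (0.00469) and was spanned by 2, of 380 kb (3.44e-05) and 520 kb (2.99e-04). Fzd10 had 1 loop of 110 kb to Piwil1 (0.0475). Fzd2 and Fzd8 were only spanned, by 2 loops and by 1, and Fzd9, with its nearest anchor bin 368771 bp away, was the gene farthest from any anchor among the 47.

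Fzd1 and Fzd7 are close paralogues without introns, and both had their start sites in anchors and a loop on either side. Fzd7 was joined over 170 kb to Cdk15 upstream (FDR 0.00471) and over 100 kb to a bin downstream (0.0161). Fzd1 was joined over 160 kb to Cdk14 upstream (0.00386) and, from the bin next to its start site, over 570 kb to a bin with the start site of Mterf1b (0.0194). The upstream partners were thus themselves paralogues, with far bins 151966 bp from the start site of Fzd1 and 162424 bp from that of Fzd7. As for the Erc genes, the share of upstream bins lying in Cdk14 or Cdk15 was not counted. Each gene was also spanned by 2 loops, Fzd1 at 740 kb (FDR 5.68e-04) and 650 kb (0.00348) and Fzd7 at 380 kb (3.20e-04) and 300 kb (0.00327). Both start site bins held 1 CTCF match, and both matches lay within the coding exon, 1699 bp from the start site of Fzd1 and 1578 bp from that of Fzd7.
Fzd1, start site bin, chr5:4756328-4756357, plus strand: aggatcacCCACCAGATGGAGCtggccatg
Fzd7, start site bin, chr1:59483994-59484023, minus strand: agaatgacCCACCAGATGGAGCtggccata
The 14 bases of the match are the same in both genes, with 1 mismatch to the consensus, and so are 27 of the 30 bases shown. Each match pointed toward the Cdk partner, where a match faced it.
Fzd1, far bin in Cdk14, chr5:4912078-4912107, minus strand: tcacacagCCTGCAGGGGGCAGcatcctct
Fzd7, far bin in Cdk15, chr1:59316906-59316935, plus strand: acttttaaCCACTAGGTGGAAGcaagaaat

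**Figure D5:**
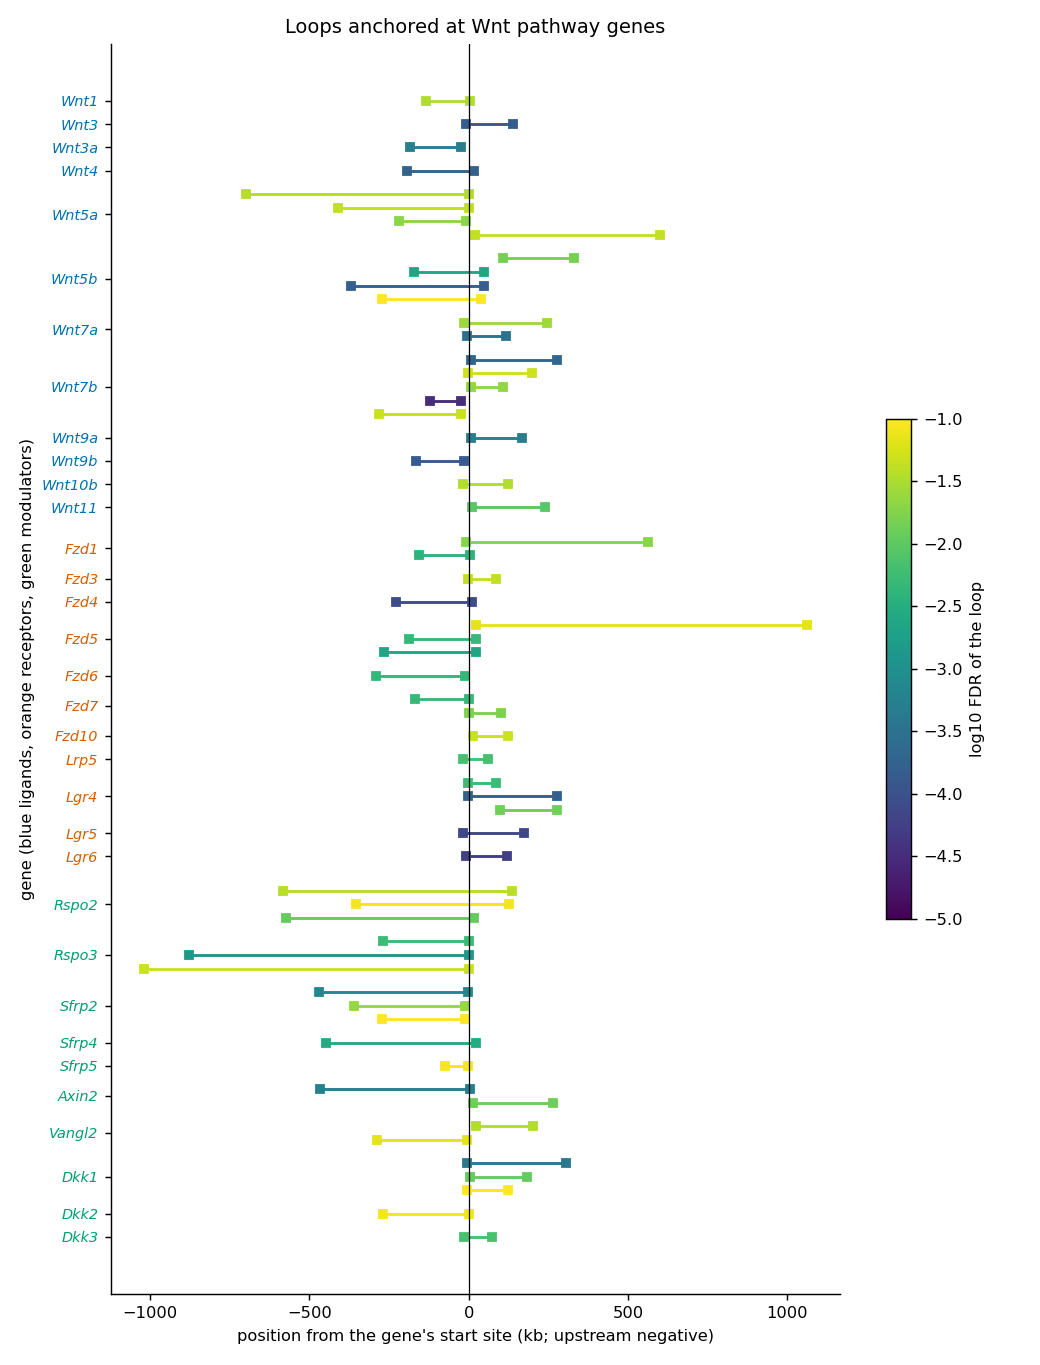
Loops anchored at 33 Wnt pathway genes, drawn from anchor to anchor (squares) along the distance from each gene's start site (x axis, kb, upstream to the left), coloured by log10 FDR. Partners lay on both sides of 8 genes, and the longest ran over 1040 kb downstream of Fzd5.

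The loop that reached farthest upstream of a start site was at a modulator, Rspo3. This R-spondin gene had 3 loops from the bin with its start site, chr10:29530001-29540000, all upstream, at 270 kb (FDR 0.00524), 880 kb (0.00131) and 1020 kb (0.0478). The farthest ended in Trmt11, and the other far bins held no protein-coding gene. Rspo2 had 3 loops from separate intronic bins, also all upstream, at 590 kb (FDR 0.0113), 720 kb (0.0366) and 480 kb (0.0851), of which the last ended in Emc2. Rspo1 was spanned by a loop of 110 kb (FDR 9.79e-05), and Rspo4 had no loop.

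The secreted antagonist gene Sfrp2 also had 3 upstream loops. The bin with its start site was joined over 470 kb to Dchs2, a cadherin gene (FDR 7.26e-04), and the bin next to it to bins at 350 kb (0.0230) and 260 kb (0.0987). The last of these values was near the limit of the list, 0.1. A loop of 600 kb (FDR 0.0176) spanned the gene. Sfrp4 had a loop of 470 kb to the start site of the T cell receptor segment Tcrg-V7 (FDR 0.00278), and Sfrp5 had its start site in the anchor of the shortest loop anchored at a Wnt gene, 70 kb (0.0897). Sfrp1 had no anchored loop and was spanned by 3, of 180, 240 and 270 kb.

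Dkk1, an antagonist that binds Lrp5 and Lrp6, had 3 loops, all downstream, into a stretch with no protein-coding gene in any of the far bins. The start site bin, chr19:30540001-30550000, was joined over 180 kb (FDR 0.0112), and the next bin, 336 bp from the start site, over 310 kb (4.01e-04) and 130 kb (0.0967). The 310 kb loop had CTCF matches that face each other.
Dkk1, far bin, chr19:30249006-30249035, plus strand: tcattaagACAGCAGAGGGCGCtcttcccc
Dkk1, near bin, chr19:30554804-30554833, minus strand: gataggatCCACCAGGGGGAAGcagaggaa
Dkk2 had its start site in the anchor of 1 loop of 270 kb (FDR 0.0847) and was spanned by 3 loops, of 690 kb (0.0605), 1010 kb (0.00524) and 1090 kb (0.0509). Dkk3, the divergent member of the family, had 1 loop of 90 kb to Usp47 (FDR 0.00681).

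Axin2, the feedback inhibitor, was joined from the bin with its start site over 470 kb to Cep112 upstream (FDR 4.73e-04) and from the bin after it over 250 kb to a bin downstream with no protein-coding gene (0.0129). A loop of 750 kb (FDR 0.00364) spanned it. Vangl2, the planar polarity protein, had a loop of 180 kb downstream (FDR 0.0347) and one of 280 kb upstream to Igsf8 (0.0678), and its start site lay 1557 bp from an anchor bin. A loop of 290 kb (FDR 0.00599) spanned it.

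Few loops anchored at Wnt genes ended at the start site of another gene. Of the 57 combinations of a Wnt gene and a loop whose far bin lay outside the gene, 3 had a protein-coding start site there (5.26%), namely Zfp867 for Wnt3a and Wnt9a and Mterf1b for Fzd1. Over all protein-coding genes it was 1573 of 11513 (13.7%). Another 9 far bins held only start sites of genes not annotated as protein-coding, counted here as noncoding, among them the T cell receptor segment Tcrg-V7. A further 29 overlapped a gene body only, and 16 held no start site and no protein-coding gene. Counted as distinct bins, 2 of 53 far bins held a protein-coding start site (3.77%, 1.04% to 12.8%), against 11.9% of the 11828 anchor bins of the list. Far bins lay upstream of the gene in 32 of the 60 combinations (53.3%) and over all protein-coding genes in 49.0%. Of the 33 genes, 12 had loops upstream only, 13 downstream only and 8 on both sides.

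Some anchor bins served more than 1 loop. Of the 48 bins at Wnt genes these were 10 (20.8%, 11.7% to 34.3%), against 13.4% of all anchor bins of the list. Of the 53 far bins they were 12 (22.6%, 13.5% to 35.5%). A far bin is reached through a loop, so bins that serve several loops are more likely to be among them. The 13.4% counts each bin once and is therefore not a like measure for the far bins.

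The CTCF consensus was no more frequent at these bins than at others of the list. It was found in 46 of the 101 bins (45.5%, 36.2% to 55.2%), against 48.4% of all anchor bins and 20.8% of all 10 kb bins of the genome. A match without a mismatch was found in 8 bins (7.92%, 4.07% to 14.9%), against 13.6% of all anchor bins and 2.39% of all bins. Matches pointed to the inside of the loop in 38 of 49 oriented anchors (77.6%, 64.1% to 87.0%), against 81.4% in the list. In the 12 loops with an oriented match at both ends the matches faced each other in 8 (66.7%, 39.1% to 86.2%), against 68.3% in the list. They pointed away from each other in 1, the 590 kb loop of Rspo2. In 3 they pointed the same way, the 410 kb loop of Wnt5a, the loop of Wnt11 and the 180 kb loop of Vangl2.

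In 4 of the 46 bins the match lay in a repeated sequence. The far bins at Rspo2 and Sfrp2 held the same 22 bases, and that at Fzd10 held them with 1 base changed. These 3 are shown because such copies count as matches wherever they lie.
Rspo2, far bin of the 590 kb loop, chr15:43746345-43746374, plus strand: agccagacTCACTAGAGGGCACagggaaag
Sfrp2, far bin of the 470 kb loop, chr3:83295832-83295861, plus strand: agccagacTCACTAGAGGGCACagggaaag
Fzd10, far bin, chr5:128725154-128725183, minus strand: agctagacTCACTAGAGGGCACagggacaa
These 22 bases in either form made up 6948 of the 64362 matches in the genome (10.8%), and they occurred in 1.01% of the anchor bins of the list and 2.60% of all bins. Without them the share of bins with a match was 41.6% at the Wnt loops, 47.6% of all anchor bins and 18.3% of all bins.

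The promoters were read for the core that TCF/LEF factors recognise, CTTTGAT or CTTTGAA on either strand, within 250 bases before to 50 bases after RefSeq start sites. RefSeq promoters were matched for 31 of the 47 genes (34 promoters). The core was found in 3 of these promoters (8.82%), at Wnt5b, Wnt11 and Dkk1, and in 8.65% of 32851 promoters of all genes. At Wnt5b it lay in the inner promoter next to chr6:119449387, and the promoter at the 5′ end of the gene held none. At Wnt11 it lay in the promoter at the 5′ end, and the other RefSeq promoter held none. The promoters of the Wnt genes were rich in CpG, with a median of 26.5 CpG in 300 bases against 7 over all promoters. The 250 bases before the start site (RefSeq, GRCm38.p6) are printed for Axin2, the target gene of the pathway, whose start site lay in an anchor bin and whose promoter held no core, and for Wnt11, which held one, in capitals.
Axin2, chr11:108920099-108920348, plus strand: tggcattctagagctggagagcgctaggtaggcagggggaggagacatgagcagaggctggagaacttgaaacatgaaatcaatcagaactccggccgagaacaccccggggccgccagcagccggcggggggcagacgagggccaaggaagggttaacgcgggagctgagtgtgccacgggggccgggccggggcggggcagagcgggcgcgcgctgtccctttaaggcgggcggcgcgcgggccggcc
Wnt11, chr7:98834862-98835111, plus strand: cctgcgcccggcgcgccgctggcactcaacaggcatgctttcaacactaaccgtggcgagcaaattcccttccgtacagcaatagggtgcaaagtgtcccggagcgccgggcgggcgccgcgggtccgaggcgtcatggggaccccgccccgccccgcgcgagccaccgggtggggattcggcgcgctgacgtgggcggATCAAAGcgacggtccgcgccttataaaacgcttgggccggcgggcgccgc
A match in these letters does not show that a factor binds there.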

How the data were processed

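The authors aligned Micro-C read pairs of 4 cochlear libraries to mm10 with BWA-MEM, removed duplicates with pairtools, and ran Mustache on the pooled map of all replicates at 10 kb. The FDR deposited with each loop is a q-value of their loop caller, below 0.1 throughout. The score deposited beside it, the detection scale, served only as an alternative filter. Other deposited assays were not analysed here, and 0 columns of per-sample values were left unmapped.

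From this list, anchored and spanning loops were counted per gene with Python 3.11.15 and numpy 2.4.6 on GENCODE vM21. Intervals were computed by Wilson's formula, written out in Python, and matplotlib 3.10.9 made the plots. Start sites were taken as 5′ ends of annotated genes. The CTCF consensus was written from general knowledge and searched in the GRCm38 sequence. The rules were tested on simulated data: 300 of 300 gene and loop relations and 200 of 200 planted matches were recovered.

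All 47 genes are accounted for. Every anchored loop is described for genes with the start site in an anchor bin, genes with 2 or more loops and the 10 genes with the lowest FDR, and neighbouring genes are described together. The genes and lists were chosen with earlier results of these data known. Alternatives were stricter FDR limits, other windows and start sites, merged calls, the smallest scale only and other motif limits. With 1 merged list no test between groups was possible. The genes in 1 partner bin and 1 of the matched sequences are not reported here.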

Additional observations from a re-analysis of the deposited data

How the results depend on the processing

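Of 53 alternative values, 46 were counted as the same and 7 as moved, though some of the 46 differed clearly from the value reported. Counting only anchor bins that hold the start site left 13 of the 47 genes with an anchored loop, of which 3 were ligands, 4 receptors and 6 modulators, against 7.10% of all protein-coding genes. At FDR < 0.01, 6 modulators had an anchored loop and 14 Wnt genes (29.8%) were spanned, against 12.5% of all protein-coding genes. Requiring a CTCF match with no mismatch lowered the share of bins to 7.92%. For these 7 values fewer loops, bins or matches qualify by construction. The count of Wnt genes with an anchored loop was 24 (51.1%, against 21.5% of all protein-coding genes) at FDR < 0.01, 26 (55.3%, against 29.3%) with a window of 10 kb and 38 (80.9%, against 50.3%) with a window of 50 kb, and 29 (61.7%, against 33.1%) after calls within 100 kb of each other were merged. The shares at FDR < 0.01 and with the 10 kb window lay below the interval of the main share, 56.0% to 81.3%. Counting genes with the start site between the anchors, anchored loops included, gave 33 spanned genes against 23 in the main count. Leaving out the repeated 22-base match was an alternative chosen after seeing the data. No paired analysis was possible because every loop comes from a single merged map. Depth per replicate limits which contacts can be called, and its effect cannot be measured from the list.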

Other observations

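Other genes of the pathway were counted in the same way, from a list that holds none of the 47 genes. An anchored loop was listed for 33 of these 63 genes (52.4%), and 8 had their start site in an anchor bin, against 7.10% of all protein-coding genes. By group the anchored genes were 7 of 14 in the destruction complex and signal transduction, 7 of 12 nuclear effectors, 3 of 10 genes of secretion and the cell surface, 4 of 5 other receptors, 2 of 7 other secreted antagonists, 7 of 10 genes of planar polarity and 3 of 5 feedback genes. Over all protein-coding genes the share was 35.5%. These other pathway genes were not split by length, and several are long, such as Ror1, Gpc3 and Prickle2. Over all protein-coding genes the share rose from 22.2% below 10 kb to 62.3% at 50 kb or longer. How much of the 52.4% goes with gene length was not counted.

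The genes with the start site in an anchor bin were Csnk1a1, Tle1, Tle3, Tspan12, Ror1, Wif1, Prickle1 and Celsr1, and the loops given here are those with the start site in an anchor, since several of these genes had others. Celsr1, a seven-pass cadherin of planar polarity, was joined over 130 kb to a bin within its own gene with an FDR of 3.23e-05. Ror1, a receptor for Wnt5a, had 2 such loops, of 310 kb (FDR 0.00302), within the gene, and 440 kb (0.00978), to Ube2u. Wif1, a secreted Wnt inhibitor, had a loop of 220 kb (FDR 0.00178). Prickle1, also a planar polarity gene, had one of 620 kb (0.00973). Tspan12, a coactivator of Fzd4, had one of 90 kb (0.0193) to a bin with the start site of Ing3. Csnk1a1, a kinase of the destruction complex, had one of 80 kb (0.0133) to the noncoding Bvht. At the start sites of the corepressors Tle1 and Tle3 they measured 840 kb (0.0665) and 320 kb (0.0670).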
